A study of Homo sapiens with 2 samples.

Results

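The genes described here are cytokines, chemokines, the tumour necrosis factor (TNF) superfamily, their receptors, and the TRAF and NF-kB proteins that relay their signals. They were taken by symbol: all genes whose names begin with TNFSF, TNFRSF, TRAF, IL, CXCL, CXCR, CCL or CCR followed by a digit, together with 15 genes named singly, among them TNF, CD70, CD40, FAS, LIF and NFKBIA. Of 201 protein-coding genes of the RefSeq annotation that match, 92 had a named feature in the values used, with 106 features in all, out of 11564 named genes. A feature is 1 transcript accession on the array, and a gene was represented by its brightest feature. CD27, FASLG and LIFR had no named feature and were not analysed here.

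Expression was measured in T47D, an established human line of luminal breast cancer that expresses the oestrogen receptor, in 2 groups of 1 one-colour array each. The NC cells carried a negative control lentivirus. The shTRPS1 cells carried a lentivirus whose short hairpin targets TRPS1, a GATA-type zinc finger repressor; both groups thus went through lentiviral delivery. The sources used here give neither the hairpin's sequence nor whether the cells were a pool or 1 clone. With 1 array a group there was no replicate and no test, so all differences below compare these 2 arrays and are given as log2 of the shTRPS1 intensity minus log2 of the NC intensity.

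TRPS1 itself read 726 on the NC array and 603 on the array with the shTRPS1 label (log2 difference -0.27), so all directions rest on that label. Background was set by 60 olfactory receptor features, a family with no known role in this tissue: the 95th percentile of their intensities was 397 on the NC array and 325 on the shTRPS1 array. The cell label was checked against fixed markers: all 8 luminal markers, such as KRT19, GATA3 and ESR1, were above background on both arrays, with a summed intensity of 116874 and 111898. Of the leukocyte markers, CD14 read 85.3 and 85.4, CD79A 94.8 and 86.3, and LYZ 120 and 67.1, below background on both arrays, and PTPRC and the CD3 chains had no named feature. CDH5, the only measured endothelial marker, was below background too. COL1A1, the only measured fibroblast marker, read 363 and 773, above background on the shTRPS1 array only. Its log2 difference was 1.09, over 2-fold by the readings. With the NC reading replaced by its background level, COL1A1 was at least 1.95-fold higher on the shTRPS1 array. The part of other cell types in the results below was not tested.

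TNF family ligands bind trimeric receptors that recruit TRAF adaptors and activate NF-kB or, through death domains, apoptosis. Interleukins of the IL6 family, LIF among them, signal through the shared chain IL6ST to JAK kinases and STAT factors, and chemokines guide cell movement through G protein-coupled receptors. Many of these genes are best known from immune cells, but breast epithelium also makes some of the receptors and the signalling proteins.

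Most of these genes were dim in T47D. Of the 92 genes, 42 (45.7%) were above background on at least 1 array, against 60.1% of all named genes, and 30 were above it on both. A gene was called higher or lower when its intensities differed at least 2-fold and at least 1 array was above background. By that rule IL17RB and LIF were higher on the shTRPS1 array, 2 of 42 genes, where 3.79% of all genes above background were called higher. CD70, TNFRSF18, TRAF1 and IL6R were lower, 4 of 42, where 2.37% of all genes above background were called lower. With counts this small, neither share is shown to differ from the background. The 42 genes passed the filter partly through the array on which they were bright, so these counts describe them and not all 92. In such bulk samples, fewer cells with a transcript and less of it per cell cannot be told apart. Over all 92 genes the median log2 difference was -0.02, against 0.05 over all named genes, fewer of which were dim. Among genes above background on at least 1 array the order was the other way, 0.13 for the 42 and 0.08 for all such genes. With both arrays above background the medians were 0.13 and 0.04. These differences between medians were not tested.

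**Figure D1:**
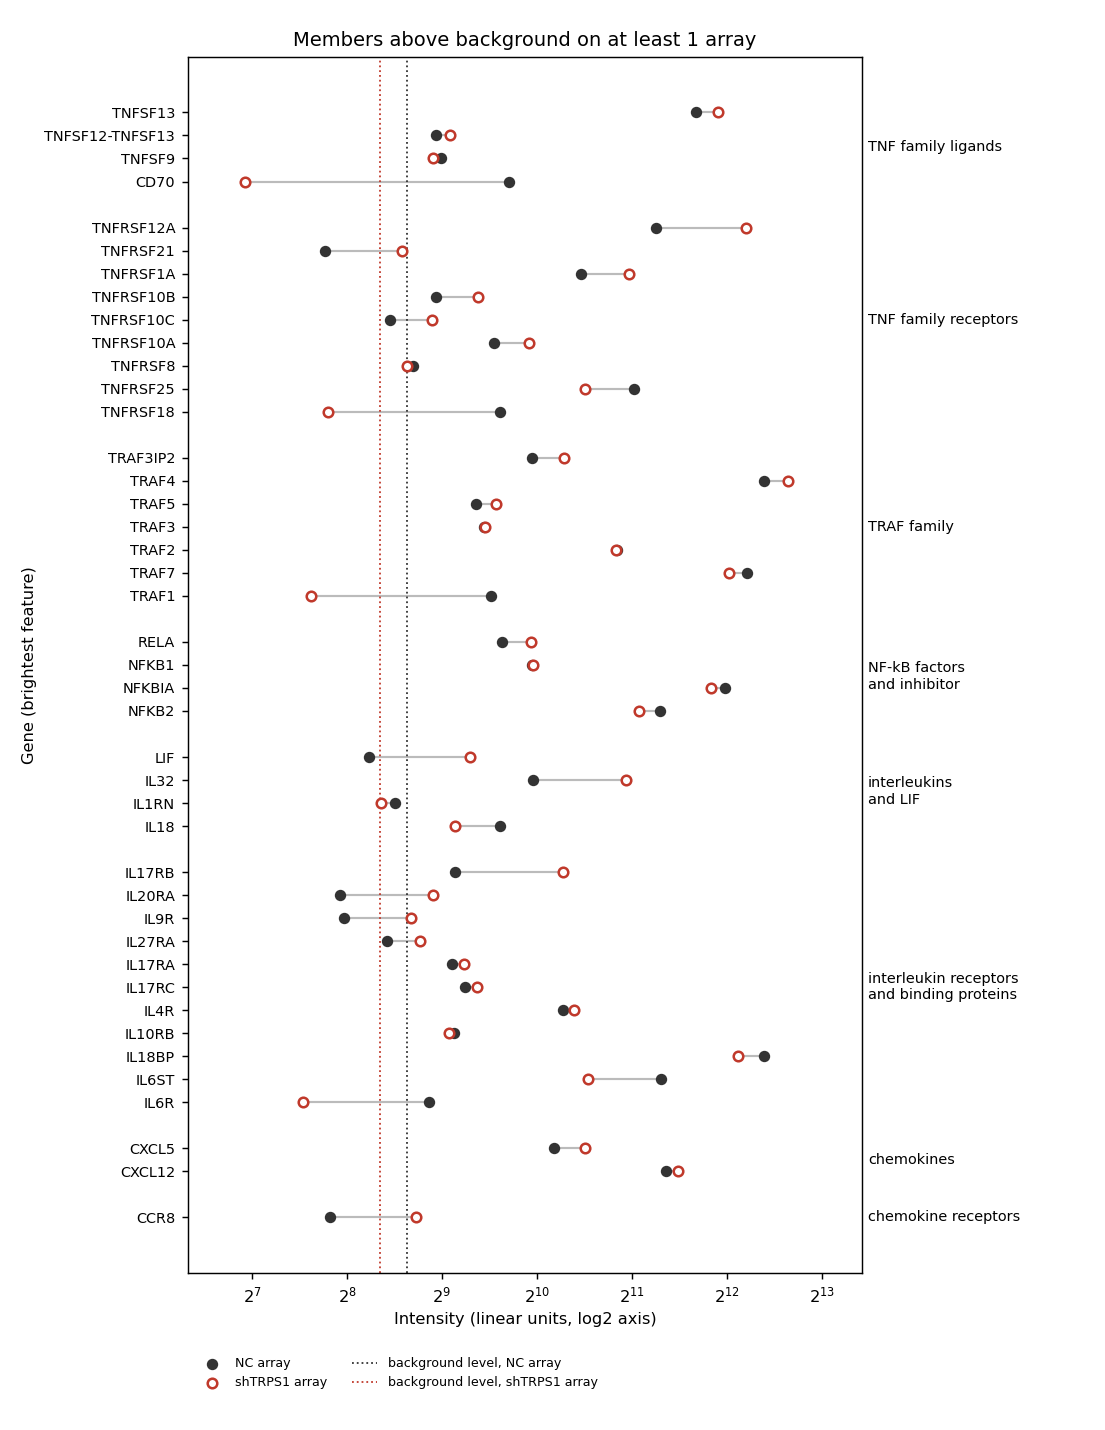
Intensity on the NC array (filled) and the shTRPS1 array (open) of the 42 genes above background on at least 1 array, on a log2 axis, grouped by role, with 1 array a group and no error bars. The dotted lines are the background levels of 397 (NC) and 325 (shTRPS1). CD70, TNFRSF18, TRAF1 and IL6R cross from above to below background, and LIF crosses the other way.

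All 4 lower genes were above background on the NC array and below it on the shTRPS1 array, so that their folds are lower bounds, set against the shTRPS1 background level and written as "at least". Among genes with both arrays above background, only IL17RB of 30 was called, where 1.39% of such genes were called higher, and no member was called lower, where 1.32% were. With both arrays above background, IL17RB, IL32 and TNFRSF12A lay outside the central 95% of differences of genes of like brightness. Of the 4 lower genes, whose exact differences are not measured, CD70 and TNFRSF18 lay outside that range even at their bounds, while TRAF1 and IL6R, at bounds of -1.17 and -0.52 on the log2 scale, lay inside it. LIF, although called, lay inside it too.

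**Figure D2:**
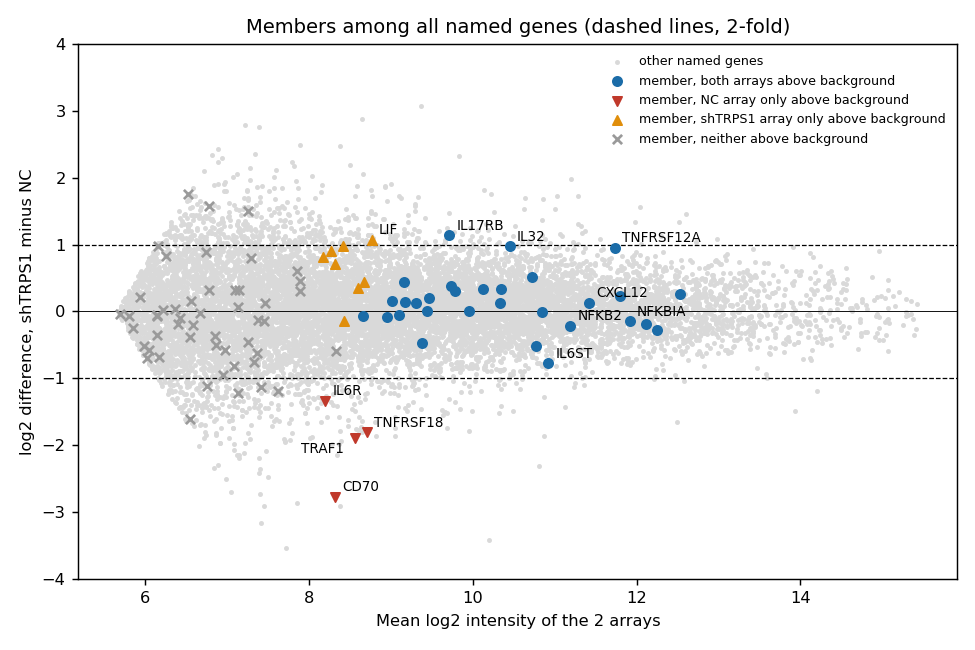
Log2 difference, shTRPS1 minus NC, against the mean log2 intensity of the 2 arrays for all named genes (grey) and for the 92 cytokine, chemokine and TNF superfamily genes, marked by which arrays were above background. Dashed lines mark 2-fold. Points with 1 array below background, CD70 at -2.78 among them, are plotted at their readings, which are not exact; NFKBIA and NFKB2, at -0.15 and -0.22 with both arrays above background, lie close to 0.

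Among the TNF family ligands, CD70 was the only gene called. CD70, the ligand of the lymphocyte receptor CD27, read 833 on the NC array and 122 on the shTRPS1 array, a log2 difference of -2.78 and at least 2.56-fold lower. The bound alone, -1.36 on the log2 scale, lay below the central 95% of genes of like brightness, which ran from -1.20 to 1.19. The 2 ligand genes that flank CD70 on its chromosome in the annotation were not called: TNFSF9, which binds the receptor TNFRSF9, read 508 and 480, and TNFSF14, which binds TNFRSF14, read 205 and 133, below background on both arrays. TNFSF13, a B-cell survival ligand, read 3284 and 3857 on its brightest feature, a log2 difference of 0.23, and 3371 and 3543 on its other feature. The readthrough transcript TNFSF12-TNFSF13 read 489 and 543, and since it shares sequence with TNFSF13 these features may detect both.

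The other 8 measured ligands were below background on both arrays, with log2 differences from -1.11 to 0.82. TNF read 103 and 101, LTA, lymphotoxin alpha, 57.4 and 101, and LTB, its membrane partner, 131 and 102. TNFSF12, the ligand of TNFRSF12A, read 159 and 73.5. TNFSF10, the death ligand known as TRAIL, TNFSF11, the bone-resorption ligand known as RANKL, and TNFSF4 were also dim. Differences between such readings have no weight here: 12.1% of all genes below background on both arrays were at least 2-fold apart, and so were 8 of the 50 members below it.

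TNFRSF18 was the receptor gene called lower, and both of its features gave that reading. TNFRSF18, a costimulatory receptor of T cells known as GITR, read 780 on the NC array and 223 on the shTRPS1 array on feature NM_004195, a log2 difference of -1.81 and at least 2.40-fold lower. Its other feature, NM_148901, read 592 and 184, a log2 difference of -1.68 and at least 1.82-fold lower. Both features were above background on the NC array and below it on the other, so neither exact difference is measured. The features of 1 gene share the arrays and, in part, sequence, so they are no replicate of the condition. Across the 519 named genes that had 2 or more features above background, the SD between the log2 differences of the 2 brightest features of a gene was 0.34. The range over all such features of a gene had a median of 0.30 in these 519 genes and 0.87 in the 6 members among them. TNFRSF4, the neighbouring T-cell receptor gene, read 81.2 and 82.9, below background on both arrays, and SDF4, a calcium-binding protein of the secretory pathway encoded 2 genes away, read 3097 and 3369.

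Several other TNF receptors read somewhat higher on the shTRPS1 array without reaching 2-fold. TNFRSF12A, the TWEAK receptor, read 2442 and 4720, a log2 difference of 0.95 just under the threshold and above the central 95% of genes of like brightness, -0.71 to 0.85. TNFRSF1A, the main TNF receptor of most cells, read 1412 and 2012, a log2 difference of 0.51. The TRAIL death receptors TNFRSF10A and TNFRSF10B had log2 differences of 0.37 and 0.45, from 749 to 969 and from 490 to 667. The decoy receptor TNFRSF10C read 350 and 475, of which only the second was above its background. TNFRSF21, a death domain receptor, read 218 and 381, again with only the second above its background. That 381 is under the NC background level of 397, so no fold is given for TNFRSF21 and a rise is not shown. Over all 15 measured receptors the median log2 difference was 0.32, against 0.05 over all named genes. Of these 15, 6 were below background on both arrays, and the median is the reading of 1 of them, TNFRSF14. Such medians by role ran from -0.47 for the chemokines to 0.56 for the chemokine receptors, so this one does not single out the TNF receptors.

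TNFRSF8, a lymphocyte activation receptor, read 414 and 396. CD40, the receptor that licenses B cells and dendritic cells, read 107 and 81.9, and FAS, the death receptor, 179 and 131, both genes below background on both arrays, as were TNFRSF4, TNFRSF6B, TNFRSF9 and TNFRSF14. TNFRSF25, a death domain receptor, had 4 features above background on both arrays that did not go the same way. Features NM_148967, NM_148970 and NM_148966 had log2 differences of -0.51, -0.48 and -0.38, while NM_003790 had 0.26, from 836 to 1002. The cause of this split was not tested.

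**Figure D3:**
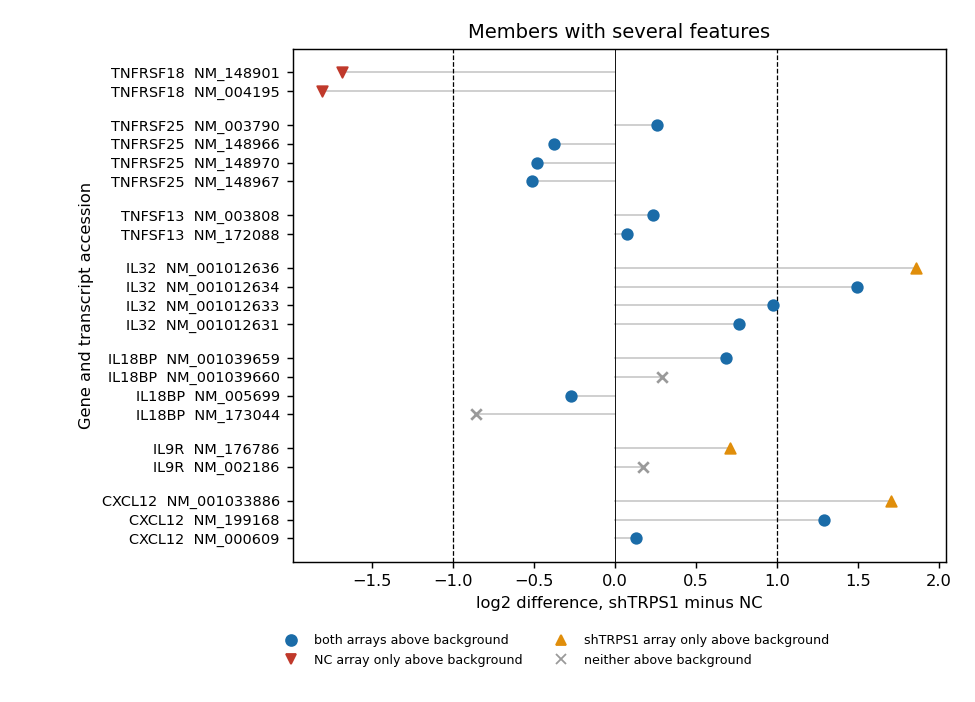
Log2 difference, shTRPS1 minus NC, of each feature of the 7 genes with several features; each point is 1 transcript accession measured on 1 array a group, marked by which arrays were above background. The features of TNFRSF18 are both negative and those of IL32 are all positive, whereas those of TNFRSF25 and IL18BP lie on both sides of 0 and the 2 features of CXCL12 above background on both arrays lie at 0.13 and 1.29. Features with 1 dim array are plotted at their readings, which are not exact.

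In the TRAF family 1 gene was called. TRAF1, an adaptor without the ubiquitin ligase domain of its relatives and itself an NF-kB target, read 731 on the NC array and 196 on the shTRPS1 array, a log2 difference of -1.90 and at least 2.25-fold lower. The other 6 genes were above background on both arrays, with log2 differences from -0.19 to 0.34. TRAF2, the adaptor of TNFRSF1A signalling, read 1839 and 1830. TRAF3, which holds the alternative NF-kB pathway in check, read 694 and 699. TRAF4, first found in breast carcinoma, read 5397 and 6434, TRAF5 658 and 759, and TRAF7 4739 and 4159. TRAF3IP2, which is not a TRAF but the adaptor of IL17 receptors, had the log2 difference of 0.34, from 991 to 1250.5. The measured genes next to TRAF1, PHF19 and PSMD5 on one side and CNTRL on the other, had log2 differences of 0.30, 0.40 and 0.17, all above background on both arrays.

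No NF-kB gene was called. NFKBIA, the inhibitor that NF-kB itself induces, read 4060 and 3665, a log2 difference of -0.15. NFKB1 read 988 and 997, NFKB2, the subunit of the alternative pathway, 2517 and 2165, and RELA, the main transactivating subunit, 791 and 977. The 4 log2 differences ran from -0.22 to 0.31, while RELB was below background on both arrays at 73.9 and 75.2. In a list of 17 other NF-kB family members and targets, 11 were measured and 8 were above background, none called in either direction. ICAM1, an adhesion molecule, read 656 and 753, BCL3, a nuclear cofactor, 1586 and 2101, and SOD2, the mitochondrial superoxide dismutase, 515 and 335. TNFAIP3, the feedback inhibitor A20, was below background at 150 and 83.8. Of 20 kinases and adaptors of the pathway, 17 were measured, 10 were above background and none was called. MYD88, the adaptor of IL1 and Toll-like receptors, had the log2 difference farthest from 0 among these 10, 0.87 from 591 to 1079. TRADD, the adaptor of TNFRSF1A, read 729 and 466. Of all genes above background, 3.79% were called higher and 2.37% lower. At such shares, no call among groups of 4, 8 and 10 genes does not set them apart from other genes.

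To show where the motif of these factors sits, the 250 bases before the RefSeq start were searched on both strands in GRCh38.p14, and 69 of the 92 genes had at least 1 such window. The kB consensus of NF-kB was found in 24 of 113 windows, 21.2%, against 9.96% of 35116 windows of all genes; the median GC content was 58.4% and 58% in these. The GATA motif (the letters GATA with A or T before them and A or G after them) was in 23.0% of the members' windows and 22.3% of all. The AP-1 motif TGANTCA was in 16.8% and 6.57%. Overlapping matches were counted separately, and windows of 1 gene can overlap. The 10 genes above background with a kB match, among them NFKBIA, NFKB1, NFKB2, IL32, CXCL5 and IL6ST, included no called gene. Their log2 differences ran from -0.78 to 0.98. Of all genes above background, 3.79% were called higher and 2.37% lower, so no call among 10 genes does not set these apart. Of the 69 genes with a window, 48 held no kB match. The called genes TNFRSF18, IL6R and IL17RB held none of the 3 motifs in this window, and TRAF1 held a single GATA match before 1 of its 3 starts. CD70 and LIF had no window. Capitals mark the kB matches in the first 4 of the following windows, from RefSeq, and the GATA match of TRAF1. These windows belong to 4 genes with a kB match and to 2 genes that were called lower. They lie at chr14:35404750-35404999 (NFKBIA, minus strand), chr4:102501109-102501358 (NFKB1, plus strand), chr10:102394328-102394577 (NFKB2, plus strand), chr16:3065153-3065402 (IL32, plus strand), chr1:1206593-1206842 (TNFRSF18, minus strand) and chr9:120914584-120914833 (TRAF1, minus strand).
NFKBIA: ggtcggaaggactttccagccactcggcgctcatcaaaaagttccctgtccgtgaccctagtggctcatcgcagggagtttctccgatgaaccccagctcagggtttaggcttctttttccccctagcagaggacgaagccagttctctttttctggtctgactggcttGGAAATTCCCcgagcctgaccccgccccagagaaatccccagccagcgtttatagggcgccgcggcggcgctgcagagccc
NFKB1: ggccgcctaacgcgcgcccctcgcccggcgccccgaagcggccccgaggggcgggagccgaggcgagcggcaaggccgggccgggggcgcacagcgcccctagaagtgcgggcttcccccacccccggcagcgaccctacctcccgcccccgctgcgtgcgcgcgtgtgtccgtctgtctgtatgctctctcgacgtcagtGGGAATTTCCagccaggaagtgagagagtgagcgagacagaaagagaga
NFKB2: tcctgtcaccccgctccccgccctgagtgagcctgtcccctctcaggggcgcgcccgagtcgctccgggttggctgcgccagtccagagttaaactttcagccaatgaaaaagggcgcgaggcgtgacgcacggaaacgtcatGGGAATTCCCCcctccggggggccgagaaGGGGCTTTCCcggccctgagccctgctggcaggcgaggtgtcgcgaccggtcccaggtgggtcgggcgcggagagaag
IL32: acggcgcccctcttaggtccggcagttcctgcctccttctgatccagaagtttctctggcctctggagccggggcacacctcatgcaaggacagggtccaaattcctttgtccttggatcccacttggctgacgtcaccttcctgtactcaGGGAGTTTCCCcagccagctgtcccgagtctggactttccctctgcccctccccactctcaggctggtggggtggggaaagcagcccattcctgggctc
TNFRSF18: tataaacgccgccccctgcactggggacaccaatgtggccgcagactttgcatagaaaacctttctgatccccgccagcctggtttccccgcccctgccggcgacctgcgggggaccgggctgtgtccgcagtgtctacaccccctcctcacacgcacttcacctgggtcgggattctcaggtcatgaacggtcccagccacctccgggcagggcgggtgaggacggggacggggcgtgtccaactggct
TRAF1: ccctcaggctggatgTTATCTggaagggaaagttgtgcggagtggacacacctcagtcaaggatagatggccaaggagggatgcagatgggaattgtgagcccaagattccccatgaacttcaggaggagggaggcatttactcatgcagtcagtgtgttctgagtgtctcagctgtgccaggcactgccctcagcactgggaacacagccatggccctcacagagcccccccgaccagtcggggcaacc
A match is a description of these letters, and binding was not measured. The kB match of NFKBIA began 81 bases and that of NFKB1 49 bases before the start.

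**Figure D4:**
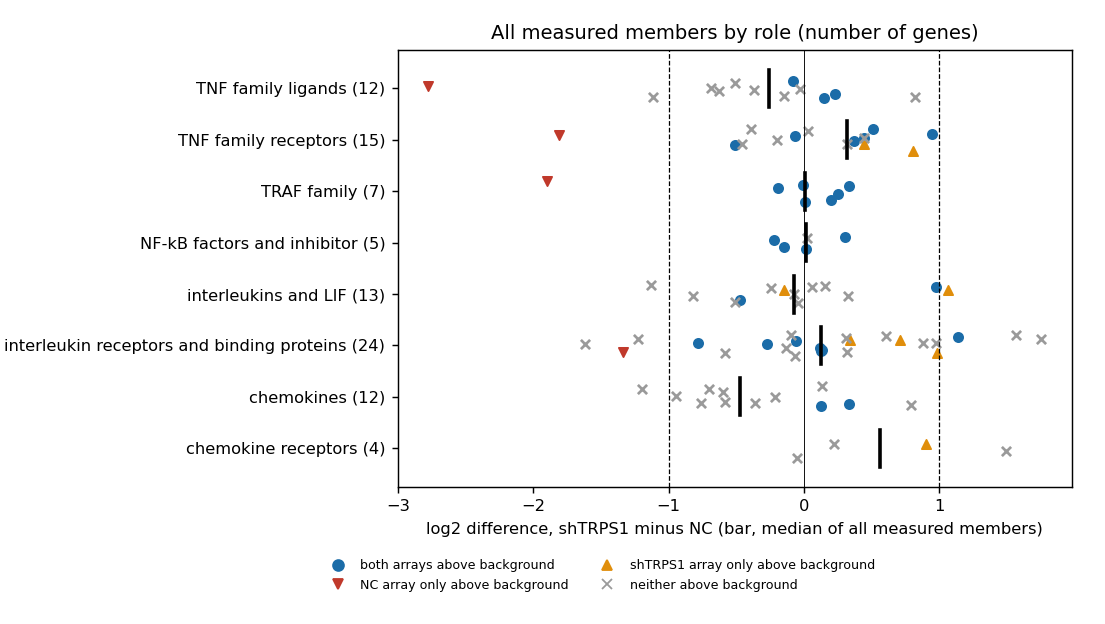
Log2 difference, shTRPS1 minus NC, of all 92 genes by role, with the number of genes in brackets; points are genes on 1 array a group, marked by which arrays were above background, and the black bar is the median of the role. TRAF and NF-kB genes cluster near 0 apart from TRAF1, and grey crosses (neither array above background) make up most of the chemokines.

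Of the interleukins, LIF was called higher and IL32 lay just under the threshold. LIF, a cytokine of the IL6 family, read 300 on the NC array and 630 on the shTRPS1 array, a log2 difference of 1.07, and was at least 1.59-fold higher, since only the second reading was above background. The gene next to LIF in the annotation is its relative OSM, oncostatin M, which read 122 and 441 and was at least 1.11-fold higher. CLCF1, another ligand of the family, read 301 and 339, of which only the second was above background. CTF1, cardiotrophin, read 1079 and 840, both above it.

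IL32, a proinflammatory cytokine with little similarity to the others, was higher on the shTRPS1 array on each of its 4 features. The brightest, NM_001012633, read 995 and 1958, a log2 difference of 0.98. Feature NM_001012631 read 744 and 1264, or 0.77, and NM_001012634 read 484 and 1363, or 1.49. Feature NM_001012636 read 393, just under the NC background, and 1425, and was at least 3.59-fold higher. The 4 accessions are forms of 1 gene and overlap in sequence, and over the 3 features above background on both arrays the difference varied by 0.73 on the log2 scale. By the brightest feature IL32 missed the call, whereas 2 of its features passed it.

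IL18, an epithelial cytokine of the IL1 family, read 783 and 564, a log2 difference of -0.47. IL18BP, the secreted antagonist of IL18, read 5365 and 4438 on its brightest feature and 1309 and 2104 on NM_001039659, log2 differences of -0.27 and 0.69 that point in opposite ways. IL1RN, the IL1 receptor antagonist, read 363 and 328, of which only the second was above the background of its array. The other 9 interleukins measured, IL11, IL13, IL15, IL17B, IL19, IL1F10, IL20, IL22 and IL27, were below background on both arrays, IL17B at 252 and 115.

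Among the interleukin receptors, IL17RB was higher and IL6R lower on the shTRPS1 array. IL17RB, which binds IL17B and IL25, read 563 and 1244, both above background, and was 2.21-fold higher with a log2 difference of 1.14, above the upper end, 1.04, of the central 95% for its brightness. The related chains IL17RA and IL17RC read 549 and 603, and 606 and 661. CHDH, choline dehydrogenase, which lies next to IL17RB in the annotation, read 270 and 740 and was at least 1.87-fold higher. Within 2 genes on either side of the 6 called genes, CHDH and OSM were the only genes called among 10 measured above background. Both were called higher, where 3.79% of all genes above background were, and both were above background on the shTRPS1 array only. A count this small is not shown to differ from that share. These 2 neighbours were chosen after their values were seen.

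IL6R, the IL6-binding chain, read 467 and 185, a log2 difference of -1.33 and at least 1.43-fold lower. IL6ST, the chain that transmits the signal of IL6, LIF and OSM, read 2544 and 1482, a log2 difference of -0.78, beyond neither 2-fold nor the central 95% for its brightness, which ran from -0.85 to 0.93. IL20RA, a chain of the IL20 receptor, read 242.5 and 480, a log2 difference of 0.98 just under the threshold, with only the second reading above background. IL27RA read 342 and 435, and IL9R 249.9 and 410 on its brighter feature. In both genes only the second reading was above background, so they were at least 1.10-fold and 1.03-fold higher. The other feature of IL9R, at 51.7 and 58.2, was below background on both arrays. IL4R, the receptor chain of IL4 and IL13, read 1237 and 1344, and IL10RB, a chain shared by IL10 and IL22 receptors, 561 and 539. Of 24 measured receptors and binding proteins 11 were above background. Among the 13 below it, IL20RB (50.1 and 169), IL1RL1 (63.9 and 190) and IL10RA (164 and 53.3) had differences over 2-fold that carry no call, and so had IL22RA1 (215 and 91.9). The others were IL13RA1, IL13RA2, IL15RA, IL17RD, IL18RAP, IL1R1, IL1RAP, IL22RA2 and IL5RA.

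JAK and STAT genes relay the signal of many of these receptors. Of 23 listed, 18 were measured and 11 above background; CISH, PIAS3 and STAT2 were called higher and JAK3 lower, 3 and 1 of 11, where 3.79% and 2.37% of all genes above background were. CISH, a feedback inhibitor of the SOCS family, read 504 and 1163 and PIAS3, an inhibitor of STAT3, 422 and 1106, all above background. STAT2 was at least 1.44-fold higher and JAK3, a kinase of lymphocyte cytokine receptors, at least 1.27-fold lower, from 414 to 168. STAT3 read 1850 and 2011 and STAT6 7587 and 9086. Of 38 other cytokine and receptor genes 25 were measured and 14 above background: OSM was called higher, and CSF3 and EDA lower. CSF3, the granulocyte colony-stimulating factor, read 947 and 348, both above background, a log2 difference of -1.44, while EDA, the TNF family ligand ectodysplasin, was at least 1.28-fold lower. The lists were drawn up with earlier results of these data known, and counts this small do not set one list apart from another.

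Chemokines were mostly dim, and the difference of CXCL12 depended on the feature read. CXCL12, the ligand of CXCR4, had 3 features. NM_000609, the brightest, read 2629 and 2871, a log2 difference of 0.13. NM_199168 read 510 and 1250, both above background, a log2 difference of 1.29, and NM_001033886 read 233 and 760, at least 1.91-fold higher. The last 2 accessions passed the call and the first did not, and the 2 features above background on both arrays differed by 1.17 on the log2 scale. Why the features of CXCL12 differ was not tested. At the level of features, 6 of 53 features of these genes above background were called higher, in IL17RB, LIF, IL32 and CXCL12, where 3.81% of all named features above background were. Another 5 were called lower, in the same 4 genes as before, where 2.39% were. Features of 1 gene are not independent of each other.

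CXCL5, a neutrophil attractant, read 1156 and 1460, a log2 difference of 0.34. The 10 other chemokines were below background on both arrays, with log2 differences from -1.20 to 0.79. CCL3 read 297 and 130, CCL3L3 396 and 262, and CCL3L1 168 and 184; these are near-identical copies, so their features may detect each other's transcripts. CCL5, a T-cell attractant, read 209 and 124, and the others were CCL14, CCL22, CCL24, CCL25, CCL26 and CXCL17. CXCR4, the receptor of CXCL12, read 91.1 and 257, below background on both arrays. CCR8, a receptor of T-cell subsets, read 225 and 422, of which only the second was above background, while CCR7 and CCR10 were dim on both.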

How the data were processed

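Total RNA of T47D cells was made into cDNA, labelled with Cy3 and put on NimbleGen human arrays of 1 colour, per the labels' protocols, with 1 array for NC and 1 for shTRPS1. The values are intensities that the authors deposited, on a linear scale, with RMA named in the submitters' processing notes; neither its version nor the array's genome build is given in the sources used here. No test was planned or run; log2 of the deposited intensities was taken. No intensity was under 50, so a transcript dimmer than that on either array is not analysed here. A second deposited table holds 8 sample columns under template names, which no label matches and which were not used; only its list of 18881 accessions was used, as an alternative. The arrays give no depth, and their number limits the precision.

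Of 28973 features, 12598 received 1 symbol, and 16375 stayed unnamed. Symbols came from matching RefSeq accessions to the GRCh38.p14 annotation. Where that gave no single symbol, the array platform's annotation was used if it held 1. Named in the text were TRPS1, TNFRSF18 with all features, every called gene, those above background on both arrays, those named singly in the selection, genes near the 2-fold line and called genes of the other lists; neighbours, features of CXCL12 and IL32, and further genes were chosen after their values were seen. The genes and lists were chosen with earlier results of these data known. Where 1 array was dim, its value was replaced by its background level for the bound, and no fold is given where that falls under 1. Genes were grouped by role by hand. Some listed genes are not reported here by name. Central 95% ranges were taken over named genes in bins of 1 log2 unit of mean intensity. Promoter windows came from the RefSeq table; the orientation was checked on 2703 pairs of overlapping windows of opposite strand, all reverse complements. The calling code was run on simulated data only to check that it recovers planted changes. The simulated noise was smaller than the spread between these 2 arrays, so the rate of false calls here was not tested. Software was Python 3.11.15 with pandas 2.3.3, numpy 2.4.6, statsmodels 0.14.6 (lowess) and matplotlib 3.10.9 (figures). Alternatives were other scalings, features per gene, background levels and filters, and thresholds.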

Additional observations from a re-analysis of the deposited data

How the results depend on the processing

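Without replicates, these alternatives show only how the counts of 2 genes called higher and 4 called lower depend on the choices. Centring on the median, quantile normalization and lowess (span 0.4) called the same 2 and 4 genes. With the 99th percentile of the olfactory receptor features as background, 2 of 32 genes were higher and 3 lower, without IL6R. Of all genes above that level, 2.90% and 2.10% were. The 90th percentile gave 3 higher and 5 lower of 48, adding CXCR4 and CCL3, against 4.24% and 3.12% of all genes above it. Averaging the features of a gene gave 4 higher genes of 41, adding CXCL12 and IL32, where 3.85% of all genes above background were higher. Requiring both arrays above background left 1 higher (IL17RB) and 0 lower, since each of the 4 lower genes was dim on the shTRPS1 array. Without a background filter 5 of 92 were higher and 9 lower, against 4.71% and 3.80% of all named genes. A threshold of 1.5-fold gave 8 of 42 higher and 5 lower, against 13.8% and 8.46% of genes above background. A threshold of 3-fold gave 0 higher and 3 lower (CD70, TNFRSF18 and TRAF1), against 0.66% and 0.59%. Over features of the second table alone, which left 12 genes above background, 0 were higher and 2 lower (IL6R and TNFRSF18), against 3.18% and 2.99% of 1606 genes. The median log2 difference, -0.02 over all 92 genes, was 0.13 over the 30 with both arrays above background, and between -0.06 and 0.02 otherwise. Over all named genes with both arrays above background the median was 0.04. Of 334 values of 48 named genes under the alternatives, 330 moved by less than 0.34, the spread between features of a gene over 519 named genes. Features of the 6 members among those 519 lay farther apart, with a median range of 0.87 against 0.30. No called gene turned sign. The count of 330 is no test of robustness, since 85 of the 92 genes had 1 feature. For those genes the choice of feature and the filters return the same value, and the scalings shift all genes only a little. The 4 that moved further were 2 of CXCL12 (1.04 and 1.29), 1 of IL18BP (-0.86) and 1 of IL9R (0.17). All of these rest on other features of the gene. No paired analysis was possible because each group had 1 array. Readings near the background levels of 397 and 325 limit what can be said of the dim genes.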
